A study of Mus musculus with 10 samples.

Results

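The genes described are the 5 members of the SIBLING family (small integrin-binding ligand, N-linked glycoproteins): Ibsp, Spp1, Dmp1, Mepe and Dspp. They were taken by gene name, and all 5 were found in both deposited tables, among 22583 gene symbols in the chondrocyte table and 22645 in the osteoblast table. RNA had been sequenced from 10 mouse libraries in 4 groups. Col2+ and Col10+ rib chondrocytes, 3 libraries each, came from ICR mice at postnatal day 1 that carried a Col2a1-ECFP or a Col10a1-mCherry transgene, so each sort was defined by a reporter for a collagen gene and came from its own transgenic line. Calvarial osteoblasts, taken from the frontal bone and the front of the parietal bone of C57BL/6 embryos at E17.5, were of the genotype Runx2_cHet_KO or Runx2_cHom_KO, with 2 libraries each. Taken at face value, these names stand for conditional knockouts of 1 and of both copies of Runx2, a transcription factor that osteoblast formation requires. The sources used here do not give the Cre driver, and no group with intact Runx2 was analysed here.

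Family members are acidic, heavily phosphorylated secreted proteins that bind calcium and hydroxyapatite and carry a tripeptide recognised by integrins. They are laid down in bone and dentine, where some promote and others restrain the growth of mineral crystals. Ibsp encodes bone sialoprotein, a nucleator of hydroxyapatite. Spp1 encodes osteopontin, an inhibitor of crystal growth that macrophages and osteoclasts also make. Dmp1 (dentin matrix protein) and Mepe (matrix extracellular phosphoglycoprotein) are products of late osteoblasts and osteocytes that act in phosphate handling. Dspp encodes a precursor cleaved into the main non-collagen proteins of dentine, and is best known from odontoblasts.

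The 5 genes lie next to each other on mouse chromosome 5 in the order Dspp, Dmp1, Ibsp, Mepe and Spp1, with 0 other protein-coding genes between them in the RefSeq annotation of build GRCm38.p6. That table holds the sequence before 6 annotated starts of 4 members, and Dspp had no entry. The stretches of 250 bases before 5 of these starts are shown because Dmp1 and Spp1 changed together with the Runx2 genotype, while Ibsp, between them, did not pass the test. All lie on the + strand: chr5:104197325-104197574 and chr5:104202367-104202616 for the first and second Dmp1 start, chr5:104299037-104299286 for Ibsp, chr5:104325079-104325328 for Mepe and chr5:104434861-104435110 for the first Spp1 start. Capitals mark the Runx core ACCACA (or TGTGGT on the other strand), the inverted CCAAT box ATTGG (or CCAAT) and the TATA-like TTTAAA.
Dmp1 first start: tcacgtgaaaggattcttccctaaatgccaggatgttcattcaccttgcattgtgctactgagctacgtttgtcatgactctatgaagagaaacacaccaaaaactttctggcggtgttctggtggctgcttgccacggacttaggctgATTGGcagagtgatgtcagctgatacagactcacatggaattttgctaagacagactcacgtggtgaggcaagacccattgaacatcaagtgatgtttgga
Dmp1 second start: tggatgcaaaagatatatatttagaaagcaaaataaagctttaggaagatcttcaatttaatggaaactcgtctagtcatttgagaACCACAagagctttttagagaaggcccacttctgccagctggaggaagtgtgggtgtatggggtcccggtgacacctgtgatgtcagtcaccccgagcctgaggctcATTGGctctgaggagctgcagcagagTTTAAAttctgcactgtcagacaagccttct
Ibsp: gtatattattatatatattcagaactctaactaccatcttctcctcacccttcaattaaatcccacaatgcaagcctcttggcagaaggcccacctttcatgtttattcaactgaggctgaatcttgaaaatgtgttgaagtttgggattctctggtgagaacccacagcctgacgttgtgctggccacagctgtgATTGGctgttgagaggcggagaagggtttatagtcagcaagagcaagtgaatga
Mepe: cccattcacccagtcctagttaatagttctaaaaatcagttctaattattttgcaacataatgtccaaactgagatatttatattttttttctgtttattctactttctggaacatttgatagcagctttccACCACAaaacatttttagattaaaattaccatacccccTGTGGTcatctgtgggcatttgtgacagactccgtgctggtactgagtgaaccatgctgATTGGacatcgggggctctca
Spp1 first start: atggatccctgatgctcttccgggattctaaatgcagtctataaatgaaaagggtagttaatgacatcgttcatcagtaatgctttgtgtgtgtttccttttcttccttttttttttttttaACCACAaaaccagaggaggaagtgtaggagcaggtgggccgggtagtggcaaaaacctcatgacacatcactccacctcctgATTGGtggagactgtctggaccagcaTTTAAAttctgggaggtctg
ATTGG stood on the strand of the gene before 5 of the 6 starts. Its first base lay 54 bases before the Ibsp start, 46 before the first Spp1 start, 57 before the second Dmp1 start, 101 before the first Dmp1 start and 21 before the Mepe start. In all, 33.8% of 32851 RefSeq promoters of equal length hold it on either strand. TTTAAA followed it before the second Dmp1 start and the first Spp1 start, and 12.1% of promoters hold it. The Runx core was found before 3 of the 6 starts, 164 bases before the second Dmp1 start, 128 before the first Spp1 start, and 118 and 80 before the Mepe start, while 14.0% of promoters hold it. The windows before Ibsp and before the first Dmp1 start did not contain these letters, and the second Spp1 start had none of the motifs. No motif overlapped another. The motifs were chosen after these sequences and earlier results had been seen. The shares of all promoters are therefore no test of whether the family holds a motif more often. A match is only a string of letters, and gene-level values do not show which start was used. Whether a motif has a part in the changes of the members was not tested.

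**Figure D1:**
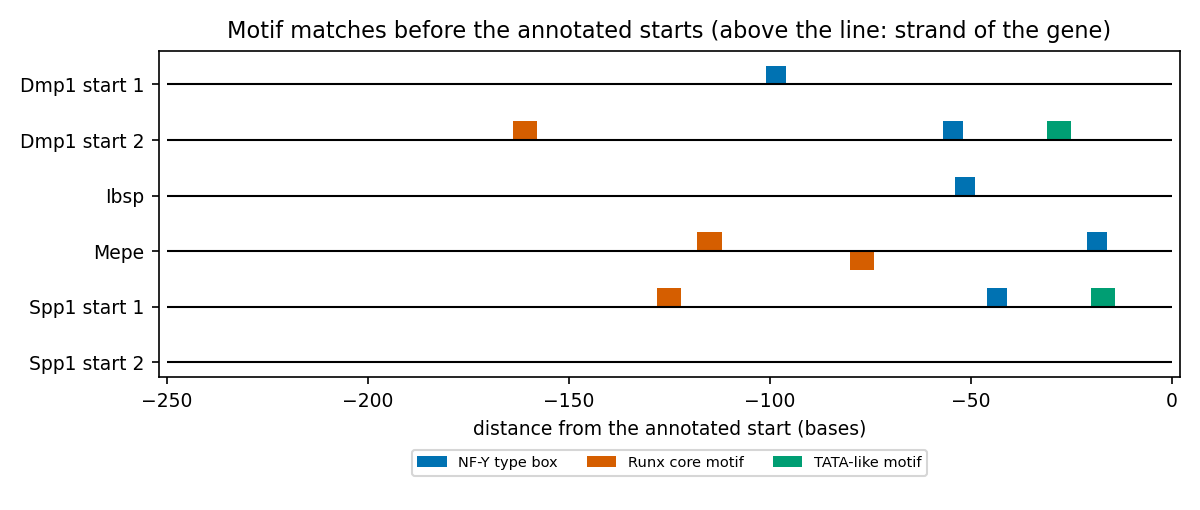
Positions of the motif matches in the 250 bases before each annotated start (x axis, bases from the start; 1 line for each start; blocks above a line are on the strand of the gene, blocks below it on the other). The inverted CCAAT box, drawn as NF-Y type box, stands before 5 of the 6 starts and the Runx core before 3.

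Values were FPKM, fragments scaled to transcript length and to the mapped fragments of a library, so levels can be set beside each other between genes. The chondrocyte table held 1 value for each sort and gives no error or p-value. In the osteoblast table each library had its own value, and errors there are ± SD over n = 2. Nothing in the labels says that libraries of a group came from separate animals, so p-values rest on a spread between libraries that may be technical only. Depth was unknown, and low values were compared between osteoblast libraries for the worth of 1 read, which was 0.796 to 0.843 times as large in Runx2_cHet_KO library 1 as in the other 3 libraries. Runx2 itself measured 43.4 and 53.9 FPKM in Runx2_cHet_KO, against 32.9 and 32.6 FPKM in Runx2_cHom_KO (limma adjusted p = 0.0707), and a gene-level value does not show a deleted exon. Col10a1 was at 59.5 FPKM in the Col2+ sort and at 2895 FPKM in the Col10+ sort, and Col2a1 was at 44205 and 31532 FPKM.

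Each context had its own leading member. Spp1 was the most abundant member in both chondrocyte sorts, with 3400.1 FPKM in Col2+ and 1614 FPKM in Col10+ cells, ranks 12 and 20 from the top of all symbols. Ibsp led in every osteoblast library, at 1102 and 679 FPKM in Runx2_cHet_KO and at 392 and 589 FPKM in Runx2_cHom_KO. Dmp1 ranked behind Spp1 and Ibsp in all 4 osteoblast libraries and in the Col10+ sort, and behind Spp1 alone in the Col2+ sort. Mepe stayed at or under 2.46 FPKM and Dspp at or under 0.0205 FPKM in all 6 columns of values. The sorts and the osteoblasts were normalized in separate tables and made with different library kits, so levels are compared only within a table.

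**Figure D2:**
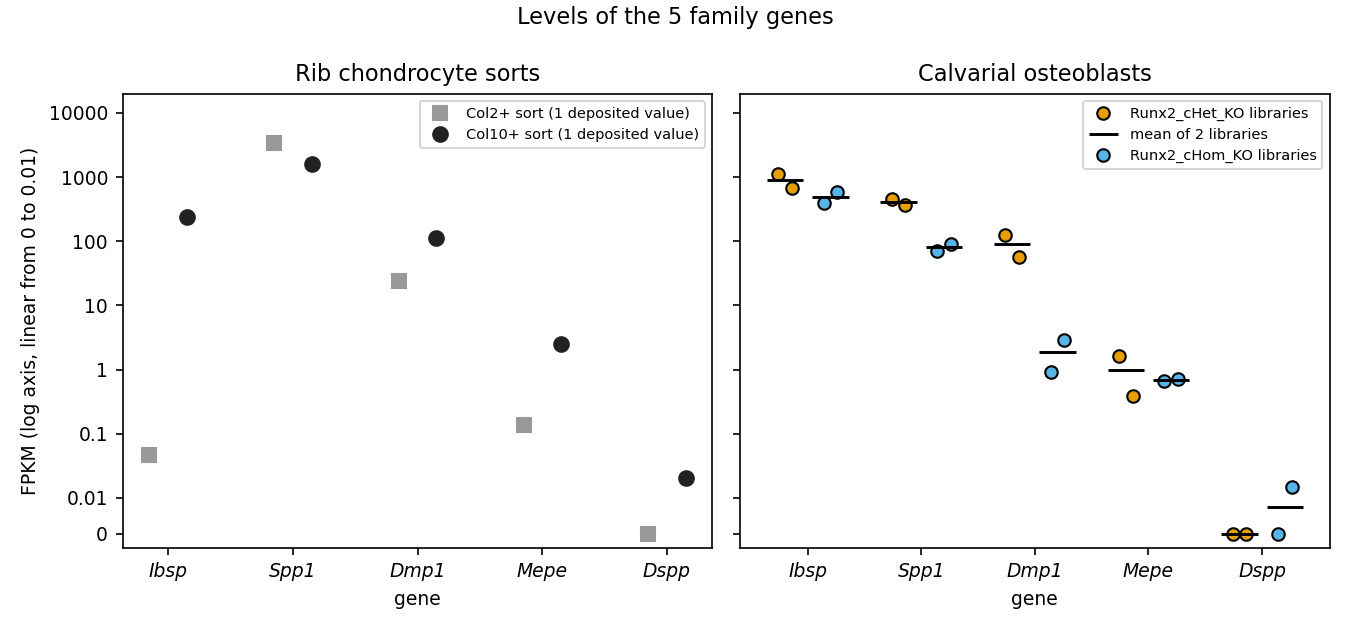
FPKM (y axis, logarithmic above 0.01) of the 5 genes in the 2 chondrocyte sorts (left, 1 deposited value each) and in the 4 osteoblast libraries (right, points are libraries and lines are means of 2). Ibsp goes from 0.0467 FPKM in Col2+ to 235 FPKM in Col10+ cells, and the Dmp1 libraries of the 2 genotypes lie far apart.

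Among the members, the Col10+ sort differed from the Col2+ sort most in Ibsp. Ibsp was at 0.0467 FPKM in Col2+ and at 235 FPKM in Col10+ cells. On the log2(FPKM + 1) scale this was a difference of 7.82, the 16th largest rise among the 8354 genes that reached 5 FPKM in a sort. Dmp1 was 4.56-fold higher in Col10+ cells, with 24.4 FPKM in Col2+ and 111 FPKM in Col10+ and a log2 difference of 2.14. Spp1 went the other way and was 2.11-fold lower, from 3400.1 to 1614 FPKM.

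Mepe was at 0.136 and 2.46 FPKM, a log2 difference of 1.61 at a level under the 5 FPKM that a difference needed to be counted. Dspp was listed at 0 in Col2+ cells, and its Col10+ value was 0.0205 FPKM. A difference was counted where it was at least 2-fold on that scale and the higher sort was at 5 FPKM or more. By this rule Ibsp and Dmp1 were higher and Spp1 was lower, beside 13.8% of all 8354 genes higher and 14.2% lower.

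The Spp1 difference of -1.07 lay just past the limit. The median over the 8354 genes was -0.31, and with both columns centred on their median ratio Spp1 was at -0.77 and under the limit, while Ibsp was at 7.98 and Dmp1 at 2.44. Centring also turned the split of all counted genes from 1150 higher and 1188 lower to 1494 and 648. The directions of Ibsp and Dmp1 were the same on both scales.

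The make-up of the family total changed with these levels. Spp1 made up 99.3% of the summed FPKM of the 5 genes in Col2+ cells and 82.2% in Col10+ cells. Dmp1 went from 0.712% to 5.67% and Ibsp from 0.00136% to 12.0%. The sum itself was 3425 FPKM in Col2+ and 1963 FPKM in Col10+ cells.

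Genes of other cells were higher in the same sort, among them cells that make Spp1 or Ibsp. Of 9 osteoblast markers at 5 FPKM or more, 8 were higher in Col10+ cells, and the summed level of the list was 370.4 FPKM in Col2+ and 5833 FPKM in Col10+ cells. All 10 macrophage and monocyte markers were higher, with sums of 3.62 and 1882 FPKM, and Tyrobp, C1qa, C1qb, C1qc and Emr1 were listed at 0 in Col2+ cells. All 4 osteoclast markers at 5 FPKM or more, of 8 on the list, were higher, and the sums were 20.5 and 369.6 FPKM. The neutrophil list was at 0.262 and 3545 FPKM. The sum of the osteocyte list went the other way, with 271 FPKM in Col2+ and 162 FPKM in Col10+ cells. Of its 5 genes at 5 FPKM or more, 3 were higher in Col10+ cells and 1 was lower, Cd109 (230 and 73.4 FPKM). The part of these cells in the differences of Ibsp, Dmp1 and Spp1 was not tested. In bulk samples fewer cells of a type and less RNA per cell cannot be told apart.

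In the osteoblasts Dmp1 had the largest change of the family. The Runx2_cHet_KO libraries had 124 and 55.9 FPKM, and the Runx2_cHom_KO libraries 0.900 and 2.86 FPKM. The lowest Runx2_cHet_KO value lay far above the highest Runx2_cHom_KO value, although the libraries differed 2.21-fold and 3.18-fold within their groups. The mean fell from 89.8 ± 47.9 to 1.88 ± 1.39 FPKM, 47.7-fold. On the log2(FPKM + 1) scale the change was -4.96 with a standard error of 0.55 (limma adjusted p = 0.0275), the second largest fall among 11909 genes tested.

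Spp1 fell as well. Its 2 Runx2_cHet_KO values were 461 and 365 FPKM and its 2 Runx2_cHom_KO values 71.5 and 90.8 FPKM, with no overlap and with 1.26-fold and 1.27-fold differences within the groups. The mean went from 413 ± 68.3 to 81.2 ± 13.6 FPKM, 5.09-fold lower. The log2 change was -2.33 with a standard error of 0.17 (limma adjusted p = 0.00961), rank 13 among the falls.

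Ibsp did not pass the test. Both Runx2_cHom_KO libraries, at 392 and 589 FPKM, were below both Runx2_cHet_KO libraries, at 1102 and 679 FPKM, and the mean was 891 ± 299 against 490.3 ± 139 FPKM. The 2 Runx2_cHet_KO libraries differed 1.62-fold from each other. The log2 change of -0.85 had a standard error of 0.30 and a 95% interval from -1.61 to -0.08 (limma adjusted p = 0.154), so a fall like that of Spp1 lay outside the interval of Ibsp.

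Mepe and Dspp were too low for the test, which needed 1 FPKM or more in at least 2 libraries. Mepe was at 1.62 and 0.381 FPKM in Runx2_cHet_KO and at 0.661 and 0.705 FPKM in Runx2_cHom_KO. Its genotypes overlapped, and the 2 Runx2_cHom_KO values lay between the Runx2_cHet_KO values. Dspp was listed at 0 in 3 libraries and was at 0.0148 FPKM in Runx2_cHom_KO library 2.

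Of the 3 members tested, 2 fell and 0 rose, where a call needed a limma adjusted p below 0.05 together with a 2-fold change on the log2 scale. Over all 11909 genes tested 1.39% fell and 2.30% rose by this rule. Both Runx2_cHom_KO libraries were below both Runx2_cHet_KO libraries for all 3 members, as for 31.3% of all genes tested, while 26.7% of genes had both above. The median change over all genes tested was -0.03.

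**Figure D3:**
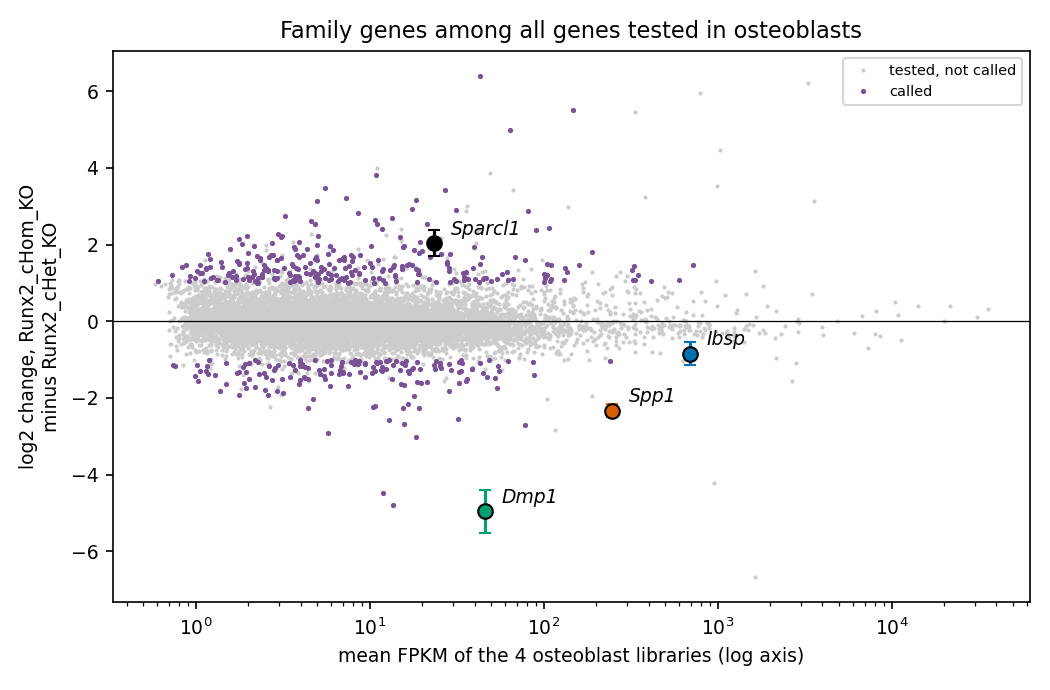
Change from Runx2_cHet_KO to Runx2_cHom_KO (y axis, log2) against mean FPKM of the 4 libraries (x axis, log) for all 11909 genes tested. Points are genes, with called genes darker. Bars on the named genes are standard errors from limma; Dmp1 at -4.96 and Spp1 at -2.33 lie below the bulk of genes at their level, Ibsp at -0.85 nearer to it, and the neighbouring gene Sparcl1 lies above at 2.04.

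The calls were lost where a Runx2_cHom_KO library was left out. Without Runx2_cHom_KO library 1 the Dmp1 change was -4.45 and the Spp1 change -2.16, each at a limma adjusted p of 0.213, and without library 2 they were -5.47 and -2.50, at 0.208 and 0.189. In these fits limma called 0 and 1 of all genes, with 1570 and 1679 at an unadjusted p under 0.05, and the 1 call, Snord61, is no gene described here. The call of every gene described here was therefore lost without either Runx2_cHom_KO library. Without Runx2_cHet_KO library 1 Spp1 changed by -2.16 (adjusted p = 0.00483) and Dmp1 by -4.39 (adjusted p = 0.0172), and without Runx2_cHet_KO library 2 by -2.50 and -5.52. Of the other genes named below, Phospho1 lost its call without Runx2_cHet_KO library 1. Bglap and Bglap2 were not tested without either Runx2_cHet_KO library, since only 1 library at 1 FPKM or more was then left. The Ibsp change went from -0.50 to -1.20 over these 4 fits and passed in none. In Mepe it went from 0.29 to -0.64, so its direction rested on Runx2_cHet_KO library 1.

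The members changed by unequal amounts within the same libraries, and a plain ratio of FPKM does not depend on a library's total. The FPKM of Spp1 was 0.418 and 0.537 times that of Ibsp in the Runx2_cHet_KO libraries and 0.183 and 0.154 times in the Runx2_cHom_KO libraries. With 1 FPKM added to each value, the log2 ratio changed by -1.48. The ratio of Dmp1 to Ibsp was 0.112 and 0.0823 in Runx2_cHet_KO and 0.00230 and 0.00486 in Runx2_cHom_KO. Its log2 change was -4.11 with 1 FPKM added and -4.75 with 0.1 FPKM added, so its size depended on this addition. Neither ratio overlapped between the genotypes, and the two-sided exact permutation p was 0.333 for each, the smallest that 2 libraries against 2 allow.

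Ibsp therefore made up a larger share of a smaller family total in Runx2_cHom_KO. The summed FPKM of the 5 genes was 1689 and 1100.3 in the Runx2_cHet_KO libraries and 465 and 683 in the Runx2_cHom_KO libraries. Ibsp held 65.3% and 61.7% of it in Runx2_cHet_KO and 84.3% and 86.2% in Runx2_cHom_KO. Spp1 held 27.3% and 33.1%, then 15.4% and 13.3%, and Dmp1 held 7.32% and 5.08%, then 0.194% and 0.419%.

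**Figure D4:**
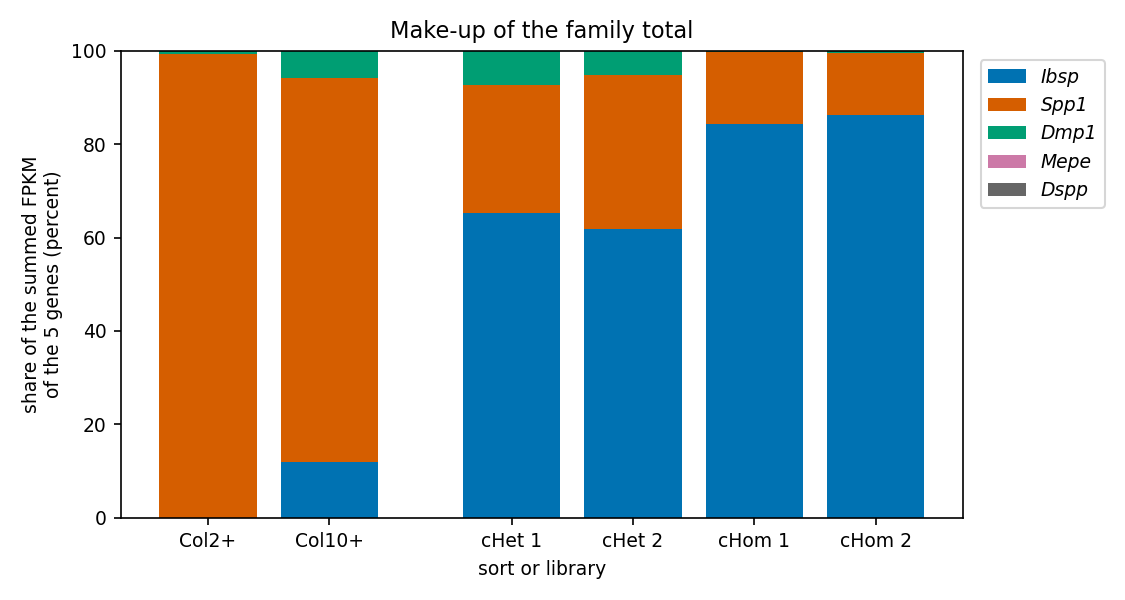
Share of each gene in the summed FPKM of the 5 genes (y axis, percent) in the chondrocyte sorts and osteoblast libraries (x axis; cHet and cHom stand for Runx2_cHet_KO and Runx2_cHom_KO). Spp1 holds 99.3% in Col2+ cells, and Ibsp holds over 60% in every osteoblast library, with the highest shares in Runx2_cHom_KO.

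Markers of other cells also differed between osteoblast libraries. The summed macrophage and monocyte list, with 10 measured genes, was at 427 FPKM in Runx2_cHet_KO library 1 and between 62.9 and 84.6 FPKM in the other 3 libraries. Without that library Spp1 changed by -2.16 (-2.33 with it), Dmp1 by -4.39 (-4.96 with it) and Ibsp by -0.50 (-0.85 with it). Leaving out a library does not test the part of macrophages in these changes. The osteoclast list summed to 98.4 and 97.2 FPKM in Runx2_cHet_KO and to 112 and 107 FPKM in Runx2_cHom_KO. Of this, Mmp9 gave 2.46 and 3.20 FPKM, then 24.6 and 23.1 FPKM. Ctsk, the largest part, went the other way, from 89.7 and 91.6 FPKM to 84.1 and 77.7 FPKM. Skeletal muscle markers, 6 genes, summed to 1.04 and 3.17 FPKM in Runx2_cHet_KO and to 46.8 and 56.8 FPKM in Runx2_cHom_KO. Endothelial markers summed to 22.4 and 6.38 FPKM, then to 51.1 and 44.3 FPKM, and fibroblast and tendon markers to 521 and 633 FPKM, then to 972 and 868 FPKM. The hypertrophic chondrocyte list was at 75.3 and 111 FPKM, then at 131 and 156 FPKM, of which Col10a1 gave 0.202 and 26.9 FPKM, then 69.7 and 98.7 FPKM. Pth1r of that list went the other way, from 57.9 and 67.6 FPKM to 42.3 and 41.6 FPKM. Its remaining genes, Mmp13 and Ihh, overlapped between the genotypes. The chondrocyte list was at 369 and 218 FPKM, then at 342 and 487 FPKM, so its groups overlapped. The osteoblast list was at 15607 and 14211 FPKM, then at 11801 and 11894 FPKM. Of its 10 genes 5 fell, beside 1.39% of all genes tested. The osteocyte list, of cells known to make Dmp1 and Mepe, summed to 109.6 and 116 FPKM, then to 85.3 and 76.3 FPKM, and 1 of 6 tested genes, Cd109, fell. Pdpn of that list went the other way, from 33.3 and 35.5 FPKM to 47.5 and 43.2 FPKM, and was not called. The other tested genes, Phex, Irx5, Fam20c and Dkk1, were lower in Runx2_cHom_KO and not called. Smpd3, Alpl, Phospho1, Phex, Fam20c and Mmp9 stand both in these marker lists and in the gene groups described below. Cd109, Bglap, Bglap2, Col1a1 and Tyrobp return below among the genes most similar to a member. The part of a changed mix of cells in the falls of Dmp1 and Spp1 was not tested.

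Transcription factors that act on bone matrix genes came next, from a list of 12. In the osteoblasts 3 of 12 fell and 0 rose, and the median log2 change was -0.66. Over all genes tested 1.39% fell and 2.30% rose, the shares to set beside the osteoblast counts of this list and those below. These lists were chosen with earlier results of these data known, so their counts are no test. Sp7, which acts downstream of Runx2 in osteoblast formation, went from 45.2 ± 7.74 to 12.1 ± 0.886 FPKM (log2 change -1.81, limma adjusted p = 0.00988). The homeobox gene Dlx3 went from 4.41 ± 0.296 to 1.26 ± 0.315 FPKM (log2 change -1.27, limma adjusted p = 0.0260), a call lost with a pseudocount of 5 and with no filter on low values. Atf4, a factor for amino acid supply in osteoblasts, was at 126 ± 0.0771 and 170.1 ± 1.23 FPKM and did not pass (adjusted p = 0.0575).

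In the chondrocyte sorts 3 of the 8 regulators at 5 FPKM or more were higher in Col10+ cells and 1 lower, with a median of 0.65. Over all 8354 genes 13.8% were higher and 14.2% lower, the shares to set beside the list counts in the sorts. Sp7 was at 0.374 and 19.4 FPKM, Dlx5 at 0.137 and 5.09 FPKM and Mef2c at 2.94 and 14.1 FPKM. Atf4 was the lower one, at 896 and 223 FPKM. Cbfb, the binding partner of Runx proteins, was at 48.6 and 24.8 FPKM and within the limit, as was Ets1 with a difference of 0.36. With centred columns 4 of 9 were higher, Dlx3 being added.

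The receptors through which cells bind the family are integrins and Cd44. Of 9 tested integrin chains and Cd44 in the osteoblasts, 0 rose and 0 fell (median -0.16). Cd44, a receptor of osteopontin, named after its values were seen, was at 67.6 ± 11.5 and 33.4 ± 5.10 FPKM, and its log2 change of -0.99 lay just inside the limit (limma adjusted p = 0.0324). The abundant chains Itgb1 (128 ± 14.4 and 119 ± 0.402 FPKM) and Itgb5 (87.6 and 111.7 FPKM in Runx2_cHet_KO, 93.4 and 84.1 FPKM in Runx2_cHom_KO) had log2 changes of -0.11 and -0.16. In the sorts Cd44 was 3.67-fold higher in Col10+ cells (15.1 and 55.3 FPKM) and Itgb3 2.66-fold higher (2.06 and 5.49 FPKM). Itga5 was 3.49-fold lower, with 57.4 FPKM left in Col10+ cells, and Itgb1 and Itgb5 were within the limit. The median of the 7 receptors at 5 FPKM or more was -0.13.

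Enzymes and partners that modify or cleave the family were mixed. Of 12 tested in the osteoblasts 1 rose and 0 fell (median -0.02). The rise was Mmp9, a gelatinase also made by osteoclasts, from 2.83 ± 0.524 to 23.8 ± 1.04 FPKM (log2 change 2.70, limma adjusted p = 0.00523). The most abundant others were Pcolce, an enhancer of procollagen cleavage by the Dmp1-cleaving protease BMP1, at 292 ± 2.27 and 238 ± 2.75 FPKM, and Mmp2 at 224 ± 8.62 and 254 ± 19.1 FPKM. Fam20c, the kinase that phosphorylates secreted proteins of this family, named after its values were seen, was at 7.19 ± 1.28 and 5.37 ± 0.471 FPKM (limma adjusted p = 0.251).

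In the sorts 6 of 12 of these genes were higher in Col10+ cells and 2 lower (median 0.80). Mmp9 was at 0.359 and 87.0 FPKM, and Phex, whose product binds Mepe fragments and is lost in X-linked hypophosphataemia, at 0.0658 and 9.02 FPKM. Tgm2, a crosslinking transglutaminase, was 5.13-fold higher (20.6 and 106 FPKM), and the BMP1-like protease Tll1 11.6-fold lower (11.3 and 0.972 FPKM). Fam20c was 2.16-fold higher (25.1 and 54.3 FPKM). Hspa5, a chaperone of the endoplasmic reticulum, was at 869 and 599 FPKM and Furin at 59.7 and 57.4 FPKM.

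Genes that set the supply of phosphate and pyrophosphate, the small ions on which the mineral depends, included 3 that fell. In the osteoblasts 3 of 7 fell and 0 rose (median -1.09), beside 1.39% and 2.30% of all genes tested. Enpp1, which makes the mineral inhibitor pyrophosphate, fell from 18.3 ± 2.63 to 3.14 ± 0.528 FPKM (log2 change -2.22, limma adjusted p = 0.00961). Ank, which brings pyrophosphate or its precursor out of the cell, fell from 28.5 and 20.1 FPKM to 7.66 and 6.25 FPKM (log2 change -1.66, limma adjusted p = 0.0172), and the phosphatase Phospho1 from 38.5 and 31.2 FPKM to a mean of 15.9 ± 2.32 FPKM (log2 change -1.09, limma adjusted p = 0.0234). The Phospho1 call was lost with a pseudocount of 5, with no filter, with plain variances and without Runx2_cHet_KO library 1. Alpl, the phosphatase that breaks pyrophosphate down, was at 127 ± 3.49 and 104 ± 3.63 FPKM (limma adjusted p = 0.143). Smpd3, a neutral sphingomyelinase needed for bone mineral, was at 295 ± 20.6 and 83.7 ± 51.3 FPKM (limma adjusted p = 0.102).

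In the sorts 3 of these 7 genes were higher in Col10+ cells and 4 lower, or 3 lower with centred columns (median -1.22). Alpl, at 0.971 and 137 FPKM, and Phospho1, at 0.261 and 6.33 FPKM, were higher like Ibsp. Enpp1, at 507 and 86.8 FPKM, and Ank, at 732 and 117 FPKM, were lower like Spp1. With centred columns they were at -2.23 and -2.33 and still past the limit, while Spp1 was not. Slc20a1 (148 and 34.5 FPKM) and Slc20a2 (25.8 and 10.5 FPKM), named after their values were seen, were the remaining lower genes.

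Of 7 secreted calcium-binding phosphoproteins related to the family, 2 were high enough for the test, Sparc and Sparcl1. Sparc, the abundant collagen- and calcium-binding relative, was at 2067 ± 41.0 and 1677 ± 70.2 FPKM in the osteoblasts (limma adjusted p = 0.158). In the sorts it was at 14610 and 7299 FPKM, a difference just past the limit that was -0.69 and within it with centred columns. The enamel genes Amtn, Amelx and Odam were listed at 0 in all 4 osteoblast libraries, and Ambn was at 1.23 and 0.494 FPKM in Runx2_cHet_KO and listed at 0 in Runx2_cHom_KO. Ambn, Amtn, Enam, Amelx and Odam were listed at 0 in Col2+ cells.

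Sparcl1, also a relative and the gene next to Dspp at the edge of the cluster, rose where Dmp1 and Spp1 fell. Its values were 12.3 and 5.73 FPKM in Runx2_cHet_KO against 42.2 and 33.9 FPKM in Runx2_cHom_KO, without overlap (log2 change 2.04, standard error 0.35, limma adjusted p = 0.0403). This call was lost with no filter on low values and with plain variances. In the sorts it was at 255 and 113 FPKM, a difference of -1.17 that was -0.86 and under the limit with centred columns. Pkd2, the gene on the other edge next to Spp1, was at 34.9 ± 6.85 and 40.6 ± 4.69 FPKM in the osteoblasts (limma adjusted p = 0.457) and 5.34-fold lower in Col10+ cells (61.8 and 11.6 FPKM).

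The remaining genes around the cluster showed no change of the size seen in Dmp1 or Spp1. Nudt9 was at 17.4 ± 0.935 and 16.5 ± 2.08 FPKM and Hsd17b11 at 11.1 ± 0.156 and 15.1 ± 0.0233 FPKM (limma adjusted p of 0.761 and 0.0832). Thoc2l, listed under an older name in the osteoblast table, was at 2.53 ± 0.00851 and 1.74 ± 0.673 FPKM (adjusted p = 0.344). Hsd17b13 and Gm17660 were at or under 0.121 FPKM in all columns, and 3 further genes of the 10 around the cluster, Zfp33b, Gm31255 and Gm20385, were not matched.

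For each member the 3 genes with the most similar pattern were found among 6459 genes at 5 FPKM or more in both tables. The measure was the Euclidean distance over 6 log2 values, those of the 4 osteoblast libraries and of the 2 sorts, each set centred on its own mean. Libraries and depth are shared by all genes compared, so the distances are a description. The genes were picked by these same values, so a change like that of the member follows from the choice. Nearest to Dmp1 were Bglap2 (distance 1.09) and Bglap (2.19), near-identical genes of osteocalcin between which reads may be split, and then Slc13a5 (2.54), a citrate transporter. Bglap and Bglap2 were listed at 0 in 2 and 1 of the Runx2_cHom_KO libraries, and Slc13a5 went from 33.9 and 22.1 FPKM to 3.46 and 3.44 FPKM.

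Nearest to Spp1 were Timp1 (0.96), an inhibitor of matrix metalloproteinases, Cd109, a surface glycoprotein, and Enpp1 (1.04). All 3 fell in the osteoblasts, which the choice by these values favoured. Timp1 went from 95.5 and 60.5 FPKM to 28.4 and 24.9 FPKM (limma adjusted p = 0.0268, a call lost with no filter and with plain variances) and was at 1703 FPKM in Col2+ and 755 FPKM in Col10+ cells. Cd109 went from 29.4 and 35.7 FPKM to 10.7 and 9.54 FPKM (limma adjusted p = 0.0113).

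Nearest to Ibsp was Col1a1 (0.76), the main collagen of bone, at 10.6 FPKM in Col2+ and 3305 FPKM in Col10+ cells and with a log2 change of -0.39 in the osteoblasts. It was followed by Tyrobp (0.98) and Sfpi1 (1.38), genes of myeloid cells, which were listed at 0 in Col2+ and at 334 and 83.2 FPKM in Col10+ cells. Of the osteoblast libraries Tyrobp was highest in Runx2_cHet_KO library 1 (25.2 FPKM, against 5.19 to 6.74 FPKM in the others), the library with the high macrophage list. For Mepe, whose level was low, they were Man2b1 (0.18), Litaf (0.22) and Dnase2a (0.23), of which none was called in the osteoblasts.

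**Figure D5:**
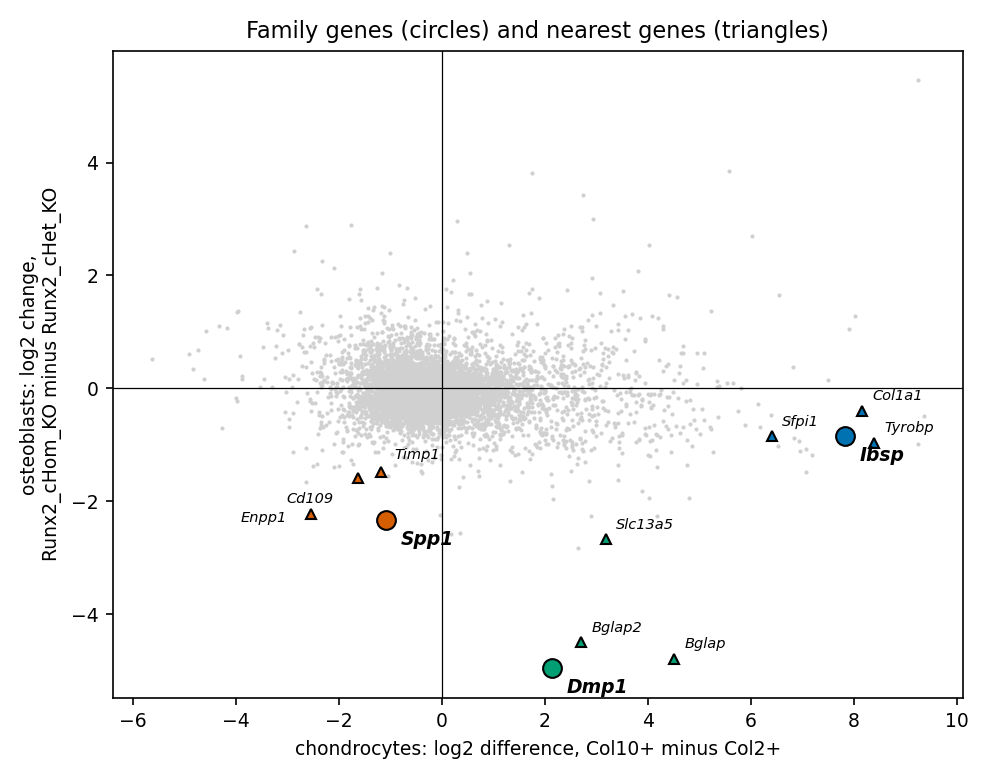
Osteoblast change (y axis, log2, Runx2_cHom_KO minus Runx2_cHet_KO) against chondrocyte difference (x axis, log2, Col10+ minus Col2+). Grey points are genes tested in osteoblasts and at 5 FPKM or more in a sort, circles are Ibsp, Spp1 and Dmp1, and triangles are the 3 genes nearest to each in the same colour. The 3 members lie in separate regions, Spp1 to the left of 0 and Dmp1 and Ibsp to the right.

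The 2 comparisons share no libraries. Of the members, Dmp1 was higher in Col10+ than in Col2+ cells (2.14) and fell with the Runx2_cHom_KO genotype (-4.96). Spp1 was lower in Col10+ cells (-1.07, or -0.77 and under the limit with centred columns) and fell as well (-2.33). Ibsp had the largest chondrocyte difference (7.82) and an osteoblast change of -0.85 that did not pass. No test of the difference between the 2 comparisons was made, since the sorts have no replicates.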

How the data were processed

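RNA was measured in Col2+ and Col10+ rib chondrocytes, with 3 libraries for each sort, made with a TruSeq kit from 100 ng of RNA, and in 2 each of Runx2_cHet_KO and Runx2_cHom_KO osteoblasts, made with a SMARTer Pico kit from 1.7 ng, per the labels' protocols. The authors deposited FPKM, per the file headers, as 1 value a sort in the chondrocyte table and 1 a library in the osteoblast table. TopHat2 2.1.0, Cufflinks, Cuffdiff 2.2.1 and build mm9 are named in the submitters' processing notes, without their order, and the sources used here do not give how the sort libraries were combined. A further value column of the chondrocyte file (1 in all) matched no sample and was not used. Rows without a gene name (3444) and rows with date-like names (25 and 26) were left out, and of several rows with the same symbol the highest was kept. A value of 0 can be a failed estimate.

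The osteoblasts were tested with limma 3.58.1 in R 4.3.3 on log2(FPKM + 1), a scale on which low genes change too little. Genes entered if 2 libraries or more reached 1 FPKM, with trended, robust variances and Benjamini-Hochberg adjustment over all of them. Calls needed both an adjusted p below 0.05 and a log2 change of 1 or more, up or down. Ratios had an exact permutation test (SciPy 1.17.1). The limma step was tested on simulated data. One gene that the naming rule gives is counted in its list but not reported here. Genes outside the family were named by rule: from each list up to 4 changed genes and the 2 most abundant others, the 3 nearest genes and the 5 protein-coding genes on each side of the cluster. Members, lists and motifs were chosen with earlier results of these data known, and the motifs after seeing the sequences. Alternatives were pseudocounts, filters, centring, variances, summed rows, a replicate block and leaving out libraries.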

Additional observations from a re-analysis of the deposited data

How the results depend on the processing

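With 1 sample value for each sort and 2 libraries for each genotype, the chondrocyte differences have no error, and none of the genes described was called without either Runx2_cHom_KO library. Leaving out single libraries gave 0 to 619 called genes, a Spp1 change of -2.50 to -2.16, a Dmp1 change of -5.52 to -4.39 and a Dspp change of 0.0 to 0.0211. With the replicate number as a block Dmp1 kept its change of -4.96 at a limma adjusted p of 0.101 and was not called, no other member changed its call, Dlx3 and Phospho1 lost theirs, and 293 genes were called in place of 439; same-numbered libraries did not deviate together (correlation of deviations -0.05). A pseudocount of 5 gave 157 called genes in the osteoblasts and 1529 past the limit in the sorts in place of 2338, and no filter gave 248. Among the named genes outside the family, Dlx3 and Phospho1 lost their calls with a pseudocount of 5, Dlx3, Phospho1, Sparcl1 and Timp1 with no filter, Phospho1, Sparcl1 and Timp1 with plain variances, and Dlx3 was not tested with a filter at 5 FPKM. In the sorts the Ibsp difference was 10.65 with a pseudocount of 0.1 and 5.57 with 5, and that of Mepe 3.44 and 0.54. Mepe (1.61) passed the limit with a floor of 1 FPKM, and Spp1 (-0.77) did not with centred columns, where 69.7% of the counted genes were higher in place of 49.2%. The Dmp1 to Ibsp ratio changed by -4.75 and -2.86 with these pseudocounts, and the Dspp change was 0.0993 with 0.1. By construction the pseudocount acts most on low values. Other causes were not tested.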
